A study of Mus musculus with 33 samples.

Results

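Mouse livers in which hepatocytes carried an activated beta-catenin allele were compared with and without an added MYC transgene, 4 days after injection of a virus carrying Cre, the recombinase that switches such alleles on. The comparison set 5 MYC+Ex3 livers against 5 Ex3 livers, 10 of the 33 libraries of the series. It tested the 13272 genes, of 21671 in the table, that had an RPKM (reads per kilobase of transcript, scaled to the mapped reads of the library) of at least 1 in at least 3 of these 10 libraries. RPKM is normalized for gene length, but abundant genes are compressed in these files, as described below. Levels of different genes therefore compare only roughly.

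MYC is a transcription factor that binds DNA with its partner MAX and is known for driving ribosome production, nucleotide synthesis and entry into the cell cycle. Beta-catenin is the effector of Wnt signalling, and in the liver it sets the gene programme of hepatocytes around the central vein. Exon 3 of its gene encodes the residues whose phosphorylation marks the protein for destruction, so deleting that exon stabilises it. Adult hepatocytes divide rarely and spend much of their transcription on secreted proteins, detoxification and lipid metabolism.

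All mice were C57BL/6, received AAV8-TBG-CRE by intravenous injection at 6 to 8 weeks of age and were killed at day 4. The Ex3 group carried the beta-cat Ex3 allele alone and the MYC+Ex3 group carried R26-lslMYC together with beta-cat Ex3, so the activated beta-catenin and the virus were common to both. Another 10 livers given the same virus, 5 with R26-lslMYC alone and 5 wild type (WT), served for side-by-side values. The series asks how MYC and beta-catenin cooperate in liver tumours, and its tumours were not used here. The TBG promoter is active in hepatocytes, so Cre is expressed there and not in the other cells of the liver, while RNA came from whole liver tissue. In such bulk samples, fewer cells of a type and less RNA per cell cannot be told apart. The labels do not say whether any mice were littermates.

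The 10 libraries held 3748941 to 7313826 reads in genes, as recovered from the RPKM. The most abundant gene of any library reached only 220 to 396 RPKM, and albumin lay at 177 to 313. Reads of the 50 most abundant genes rose with library depth by a median slope of 0.18 on log2 scales, against 1.31 for the other genes tested, so differences between abundant genes, hepatocyte markers among them, are compressed in these files. By their Xist and Ddx3y values, 3 Ex3 and 4 MYC+Ex3 livers were male and 2 and 1 were female. In 3 livers of each group the epidermal keratin genes Krt5, Krt14 and Krt17 summed to 3.95 to 23.8 RPKM, and in the other 2 of each group to 0 to 0.398 RPKM. In both groups the keratin-free livers carry the lowest numbers in the sample titles. Among the MYC and wild-type livers the keratin levels did not follow these numbers. The labels name 2 kinds of sequencing instrument without saying which library ran on which, and whether the keratin split follows them is not known. Replicates 3 and 4 of the Ex3 group were both female, both keratin-bearing, and both higher than the other Ex3 livers in mitosis genes.

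The Myc row of the table did not separate the groups. Myc RPKM was 4.1, 5.23, 1.93, 4.34 and 4.09 in the MYC+Ex3 livers and 3.21, 1.86, 1.36, 3.41 and 7.72 in the Ex3 livers, and the groups overlapped. Its change was 0.24 ± 0.33 (SE) on the log2(RPKM + 1) scale, with a limma adjusted p of 0.631. Whether reads of the transgene were counted in this row is not given in the sources used here, so Myc does not check the labels. Ctnnb1, which encodes beta-catenin, had a mean of 122 RPKM in MYC+Ex3 and 120.0 in Ex3 livers, with a change of 0.01 ± 0.09 and a limma adjusted p of 0.96. A gene-wide RPKM does not measure the loss of exon 3.

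Axin2 lay above wild type in every liver of both groups. This gene, a negative feedback gene of the Wnt pathway, lay at 24.3, 23.6, 11.1, 7.49 and 16.6 RPKM in MYC+Ex3 and 24.9, 20.8, 19.7, 16.2 and 10.6 in Ex3 livers, whereas wild-type livers held 2.73 to 4.3 RPKM. Every one of the 10 livers with Ex3 was above every wild-type liver. Lgr5, the receptor for R-spondins, lay at 5.64 to 14.6 RPKM in MYC+Ex3 and 7.63 to 17.1 in Ex3 livers, and wild-type livers held 1.81 to 6.72. Glul, the glutamine synthetase of pericentral hepatocytes, lay at 189 to 315 and 220.0 to 303, with 173 to 207 in wild type. The ranges of these 2 genes overlapped with wild type in the MYC+Ex3 livers. Neither Axin2 nor Lgr5 passed the test between these groups (limma adjusted p of 0.666 and 0.426). Of 19 tested beta-catenin targets, 0 were called in either direction, against 26.6% of all genes tested, and 2 were called lower without MYC+Ex3 replicate 3 or 5. Their median change was -0.22 against 0.03 over all genes tested. Cyp2e1, the pericentral ethanol-oxidising P450, lay at 184 to 311 RPKM in MYC+Ex3 and 232 to 321 in Ex3 livers (change -0.24 ± 0.15, limma adjusted p 0.266).

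With MYC added, 26.6% of the tested genes were called. At an adjusted p below 0.05 (limma on log2(RPKM + 1), Benjamini-Hochberg over all genes tested), 2506 genes were called higher, 18.9% of those tested, and 1020 were called lower, 7.69%. Changes upward were larger: 784 of the higher calls and 73 of the lower calls were at least 1 log2 unit, and the median called change was 0.73 upward and -0.53 downward. Every MYC+Ex3 liver lay above every Ex3 liver for 2073 genes (15.6%) and below for 676 genes (5.09%). The balance of higher and lower calls depended on scaling: higher calls were 71.1% of all calls as deposited and 59.8% after rescaling each library by its median ratio, with 2155 higher and 1451 lower. Rescaling moved the median change of all genes from 0.03 to -0.03. Within the keratin-bearing libraries, 3 livers against 3, 1372 genes were called higher and 310 lower, and within the keratin-free ones, 2 against 2, 3310 and 2576. With the library set as a term in the fit of all 10 livers, 3331 were called higher and 1735 lower.

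**Figure D1:**
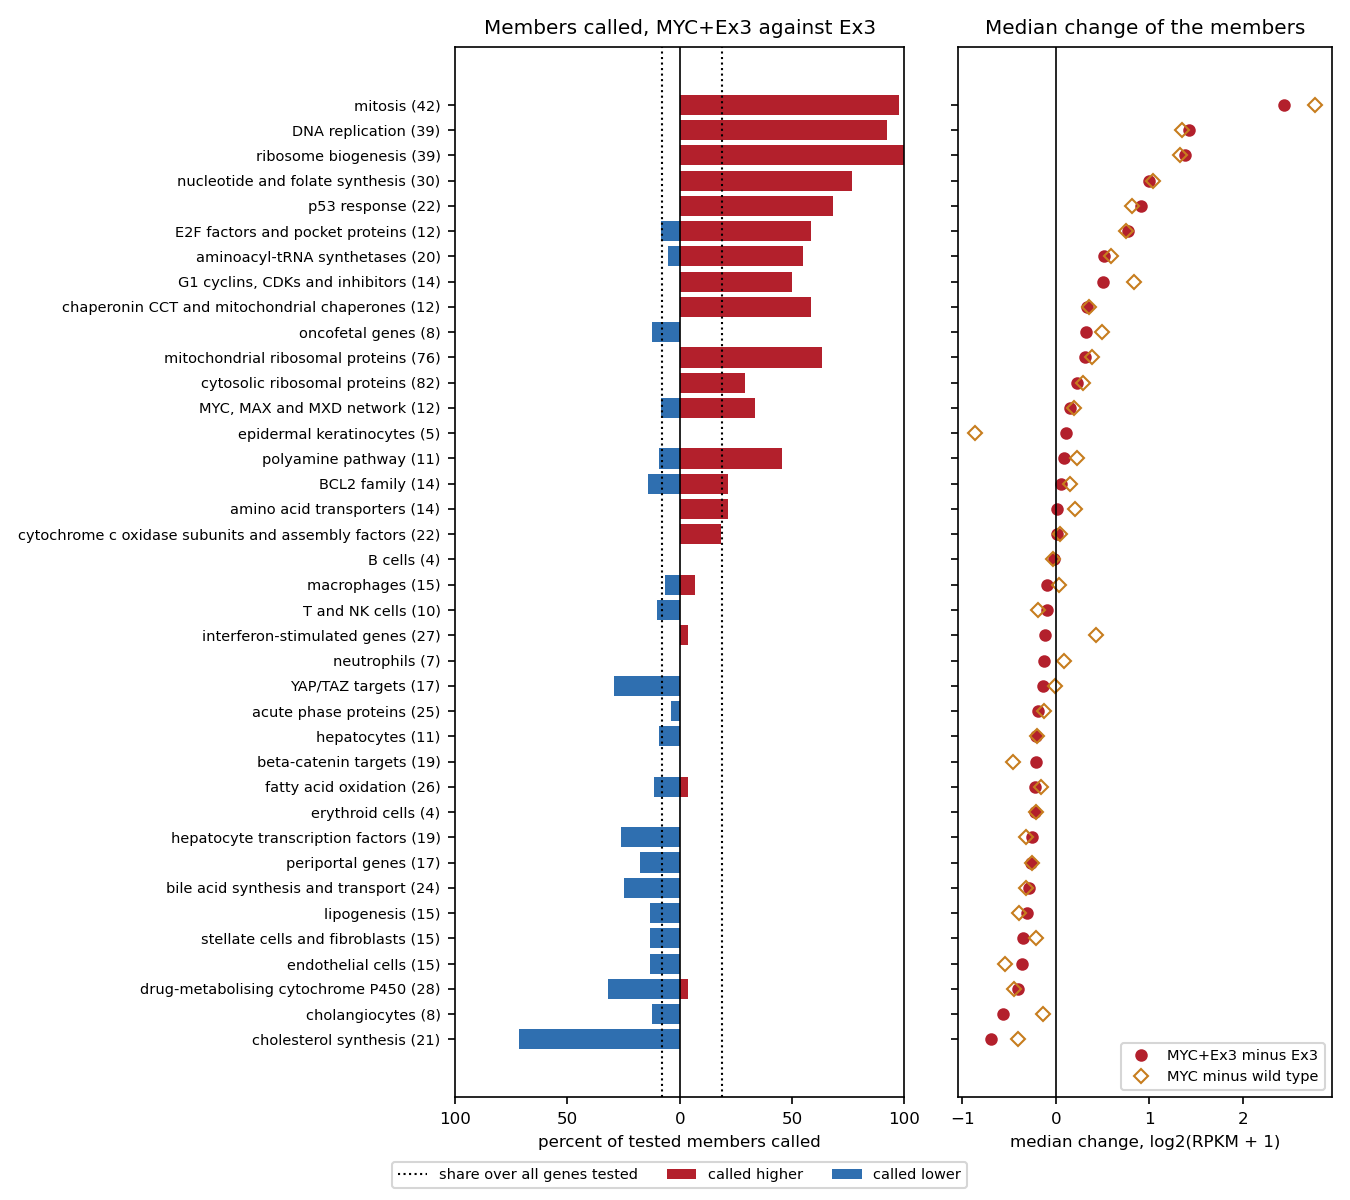
Left, percent of the tested members of 38 gene lists called higher (red, right) or lower (blue, left) in MYC+Ex3 against Ex3 livers, with the number tested in parentheses and dotted lines at the share over all genes tested (18.9% higher, 7.69% lower). Right, median log2(RPKM + 1) change of each list in that comparison (circles) and in MYC against wild type (diamonds); ribosome biogenesis, DNA replication and mitosis stand at the top and cholesterol synthesis at the bottom.

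Cox6b2, 1 of the 3 genes used as markers of this comparison, went from near absence to a moderate level. It encodes the testis isoform of subunit 6b of cytochrome c oxidase, the last complex of the mitochondrial respiratory chain. Its RPKM was 17.4, 23.5, 15.4, 9.42 and 13.1 in the MYC+Ex3 livers and 0, 0.547, 0.373, 1.71 and 0 in the Ex3 livers. The groups were far apart, and the Ex3 values rested on 0 to 5 reads per library against 29 to 104. Of the Ex3 livers only replicate 4 reached 1 RPKM, so the gene passed the filter through the MYC+Ex3 livers. The change was 3.51 ± 0.30 with a limma adjusted p of 1.92e-05; with a pseudocount of 0.1 in place of 1 it was 5.42. In livers without Ex3 the same gene lay at 4.41, 4.36, 4.15, 4.37 and 2.23 RPKM with MYC and 0, 0.372, 0.819, 0.681 and 0.378 without it. In a fit of MYC+Ex3 against MYC, which shares the MYC+Ex3 livers, Cox6b2 was 1 of 9 genes called higher among the 13272 (0.0678%; 1 was called lower), with a limma adjusted p of 0.0271, and 17 genes were called higher in Ex3 against wild type (0.128%), Cox6b2 not among them. The authors' deposited table gives Cox6b2 a log2 fold change of 1.05 for MYC+Ex3 against MYC, with an adjusted p of 1.14e-05.

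Most of cytochrome c oxidase was not called. Cox6b1, the somatic paralog of Cox6b2, lay at 96.9 to 140.0 RPKM in MYC+Ex3 and 110.0 to 139 in Ex3 livers, a change of -0.09 ± 0.11 with a limma adjusted p of 0.599. Of 22 tested subunits and assembly factors, 4 rose and 0 fell, a share near the 18.9% over all genes, and the median change was 0.01. Beside Cox6b2, these were the heme synthesis enzyme Cox10 (0.72), the membrane insertase Cox18 (0.63) and the copper chaperone Sco1 (0.38), with limma adjusted p of 0.005, 0.0395 and 0.0216. The calls of Cox18 and Sco1 were lost in several fits that leave out 1 liver.

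The start-site sequence of Cox6b2 from RefSeq (GRCm38.p6, 250 bases before to 50 after the start, chr7:4753045-4753344, minus strand) is shown because the gene also led the test of the difference between backgrounds given further on. Capitals mark the CCAAT box, the letters CCAAT on either strand, which NF-Y binds.

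Cox6b2: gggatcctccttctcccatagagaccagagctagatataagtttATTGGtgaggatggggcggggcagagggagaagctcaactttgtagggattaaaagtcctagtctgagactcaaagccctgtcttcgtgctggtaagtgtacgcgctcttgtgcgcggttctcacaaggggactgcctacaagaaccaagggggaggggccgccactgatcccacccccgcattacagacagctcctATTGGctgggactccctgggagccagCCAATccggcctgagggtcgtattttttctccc

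**Figure D2:**
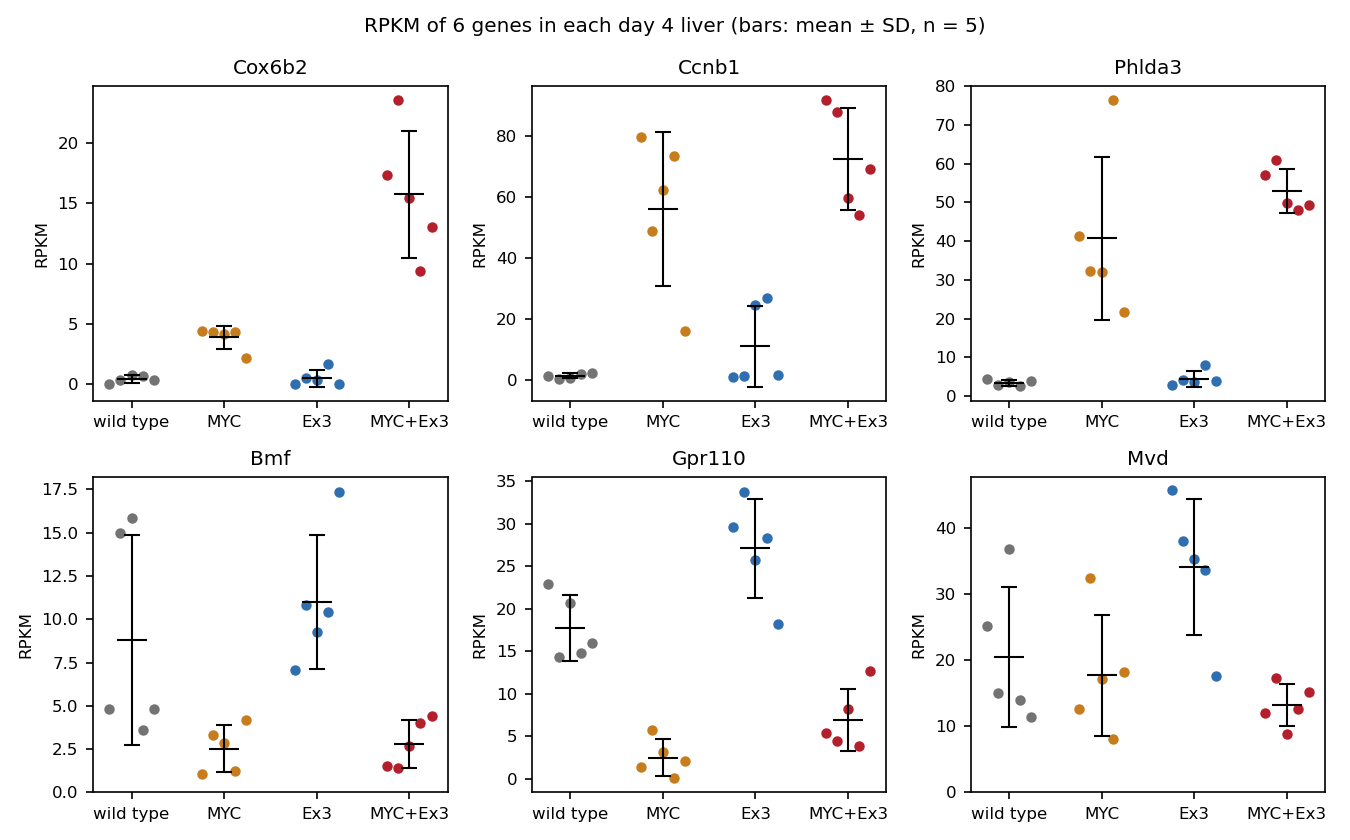
RPKM of Cox6b2, Ccnb1, Phlda3, Bmf, Gpr110 and Mvd in each of 20 day 4 livers, with 5 points per group and bars for the mean ± SD. In the pair on the right of each panel the groups do not overlap for any of the 6 genes. For Phlda3, Gpr110 and Mvd this was a condition of their choice. Ccnb1 is at 24.3 and 26.6 in the Ex3 livers of replicates 3 and 4.

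Genes of ribosome production rose as a block. All 39 tested members of the ribosome biogenesis list were called higher, with a median change of 1.38, and 37 had no overlap between the groups. Nop56, a core protein of the box C/D small nucleolar particles that guide methylation of ribosomal RNA, lay at 121, 124, 119, 112 and 93.9 RPKM in MYC+Ex3 and 34, 29.3, 25.1, 24.1 and 29.7 in Ex3 livers. Dkc1, the pseudouridine synthase of the box H/ACA particles, lay at 55.1, 54.6, 55.5, 54.4 and 50.1 and 11.4, 12.8, 13.7, 14.5 and 13.8. For both genes every MYC+Ex3 liver was far above every Ex3 liver, and the spread within each group was narrow. The changes were 1.97 ± 0.11 and 1.95 ± 0.08, with limma adjusted p of 3.69e-06 and 5.16e-07. Ppan, a factor of large-subunit assembly, had the largest change of the list at 2.01 ± 0.26, and Nop58, the partner of Nop56, changed by 1.89 ± 0.09 (limma adjusted p of 0.000261 and 9.49e-07). The summed RPKM of the list was 1542 to 2106 in MYC+Ex3 and 720.4 to 798 in Ex3 livers.

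MYC and MAX bind the E-box CACGTG, a palindrome that reads the same on both strands. Of 42 RefSeq start-site windows of 300 bases found for 35 of the 39 ribosome biogenesis genes, 10 held it, 23.8%, against 7.15% of all 32851 windows. The share was 9.72% of 13082 windows of the genes tested, but these matched only 10326 of the 13272 genes, fewer than 80%. The E-box was in 29.2% of 24 windows for 18 of the 22 p53 response genes described further on, in 20.0% of 30 windows for the nucleotide synthesis genes and in 8.11% of 37 windows for the mitosis genes, so the ribosome biogenesis share was not the highest. The windows of Nop2 (chr6:125131633-125131932, plus strand) and Grwd1 (chr7:45830740-45831039, minus strand), the members with the largest change among those with an E-box, are shown with it in capitals. Nop2 is a methyltransferase of ribosomal RNA and Grwd1 a histone-binding protein with a role in ribosome assembly.

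Nop2: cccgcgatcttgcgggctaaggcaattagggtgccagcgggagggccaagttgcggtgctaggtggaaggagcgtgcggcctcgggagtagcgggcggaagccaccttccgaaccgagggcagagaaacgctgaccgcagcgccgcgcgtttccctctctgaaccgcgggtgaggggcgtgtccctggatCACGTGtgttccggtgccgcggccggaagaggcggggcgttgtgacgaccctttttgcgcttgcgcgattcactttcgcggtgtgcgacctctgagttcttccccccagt
Grwd1: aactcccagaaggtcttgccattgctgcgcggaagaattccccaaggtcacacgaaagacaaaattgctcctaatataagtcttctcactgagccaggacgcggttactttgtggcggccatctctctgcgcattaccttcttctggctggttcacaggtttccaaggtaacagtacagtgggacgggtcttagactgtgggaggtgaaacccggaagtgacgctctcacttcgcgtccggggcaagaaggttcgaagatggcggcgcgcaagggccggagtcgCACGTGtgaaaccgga

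Nop2 lay at 79.2, 75, 63.4, 64.8 and 45.3 RPKM in MYC+Ex3 and 22, 22.2, 14.8, 20.6 and 20.4 in Ex3 livers. Grwd1 lay at 48, 49.4, 23.5, 30.4 and 20.0 and 13.4, 12.9, 6.84, 8.9 and 7.79. Neither gene overlapped between the groups, and the changes were 1.65 ± 0.16 and 1.64 ± 0.27 (limma adjusted p of 3.95e-05 and 0.00111). A match of letters is a description and not a binding site.

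Structural ribosomal proteins had smaller median changes than the factors that assemble them. Abundant genes are compressed in these files, and the lists differ in abundance. In Ex3 livers the 84 cytosolic ribosomal protein genes summed to 7808 to 10094 RPKM and the 39 ribosome biogenesis genes to 720.4 to 798. The part of compression in the smaller changes was not tested. Of 76 mitochondrial ribosomal proteins, 48 rose and 0 fell, with a median change of 0.31. Mrpl19 (1.22), Mrps6 (1.17), Mrps30 (0.85) and Mrpl47 (0.77) had the largest changes, with limma adjusted p of 7.41e-05, 0.00013, 0.000113 and 0.000739. Of 82 cytosolic ribosomal proteins, 24 rose and 0 fell, with a median of 0.23. After median-ratio rescaling these counts were 31 and 10, and without Ex3 replicates 3 and 4 they were 32 and 11, so both depend on scaling and on these livers. With rescaling 16.2% of all genes were called higher, and the 10 of 82 cytosolic genes lay below that share. Rps12 lay at 66 to 87.4 RPKM in MYC+Ex3 and 37.1 to 45.1 in Ex3 livers, and Rps16 at 48.2 to 67.8 and 27.8 to 40.2 (changes of 0.82 and 0.76, limma adjusted p of 0.000134 and 0.000927). Rpl34 (1.12) and Rpl26 (0.83) were called as well, with limma adjusted p of 0.00215 and 0.0184; cytosolic ribosomal protein genes have many near-identical processed copies, so their counts are uncertain.

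Other parts of protein production rose in part. Of 20 cytosolic aminoacyl-tRNA synthetases, which load amino acids onto transfer RNA, 11 rose and 1 fell (median 0.52). Vars, the valine enzyme, changed most at 1.68 ± 0.36, from 8.54 to 17.9 RPKM in Ex3 to 21.2 to 70.6 in MYC+Ex3 livers. Farsa, Gars and Iars changed by 0.94, 0.83 and 0.89 (limma adjusted p of 0.0049, 0.00314, 0.00493 and 0.0225 in that order), and the call of Iars was lost in 5 of the 10 fits that leave out 1 liver. The alanine enzyme Aars fell by 0.37 (limma adjusted p 0.00594), from 85.8, 79.5, 74.8, 81.6 and 78.8 RPKM to 63, 64.1, 64.5, 52.6 and 66.1, with no overlap. Of 12 chaperonin and mitochondrial chaperone genes, 7 rose and 0 fell (4 after median-ratio rescaling). The subunits Cct7 (0.60), Cct3 (0.55), Cct2 (0.52) and Cct4 (0.48) of the CCT ring, which folds actin and tubulin, led this group with limma adjusted p of 0.000107, 0.000894, 0.00045 and 0.000799.

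Genes that supply building blocks for nucleic acids and polyamines rose in part. Of 30 nucleotide and folate genes, 23 rose and 0 fell, with a median of 0.99. Ctps, which makes CTP from UTP, lay at 29.3, 28.3, 15.7, 24.1 and 12.6 RPKM in MYC+Ex3 and 2.68, 3.12, 3, 3.06 and 2.19 in Ex3 livers. Every MYC+Ex3 value exceeded every Ex3 value, and the change was 2.53 ± 0.22 (limma adjusted p 2.08e-05). Rrm2, the inducible subunit of ribonucleotide reductase, changed by 2.59 ± 0.36, Uck2, a uridine-cytidine kinase, by 2.10 ± 0.21, and Cad, the enzyme that opens pyrimidine synthesis, by 2.07 ± 0.42 (limma adjusted p of 0.00041, 5.73e-05 and 0.00355). Of 11 polyamine genes, 5 rose and 1 fell. Srm, the spermidine synthase, rose from 14.9 to 28.2 RPKM in Ex3 to 50.7 to 99.3 in MYC+Ex3 livers, a change of 1.98 ± 0.21. Mtap (1.30), Amd1 (0.90) and Sms (0.88) rose as well, and Paox, which breaks polyamines down, fell by 0.49 (limma adjusted p of 8.44e-05, 9.53e-05, 0.000627, 0.000779 and 0.0373). The call of Paox was lost in 7 of the 10 fits that leave out 1 liver. Of 14 amino acid transporters, 3 rose and 0 fell, near the 18.9% of all genes called higher (5 rose without MYC+Ex3 replicate 3). They were the cationic transporter Slc7a1 (1.06), the glutamine transporter Slc1a5 (1.05) and the large neutral transporter Slc7a5 (0.57), with limma adjusted p of 0.00697, 0.00215 and 0.0173.

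Genes of mitosis showed the largest shift of any list. Of 42 tested, 41 rose, 0 fell, and the median change was 2.44. Ccnb1 encodes cyclin B1, the partner of CDK1 at entry into mitosis. Its RPKM was 91.6, 87.9, 59.6, 53.9 and 69.1 in the MYC+Ex3 livers and 0.962, 1.21, 24.3, 26.6 and 1.64 in the Ex3 livers. The groups did not overlap, but Ex3 replicates 3 and 4 stood far above the other Ex3 livers. The change was 3.57 ± 0.74 with a limma adjusted p of 0.00442. Without these 2 livers, an alternative chosen after seeing the data, it was 5.0 (limma adjusted p 1.98e-06). Among the 6 keratin-bearing libraries, which hold both livers, it was 2.33 and not called (limma adjusted p 0.108), and among the 4 keratin-free libraries it was 5.44.

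The same pair of livers stood out across the list. The summed RPKM of the mitosis genes was 1503, 1497, 794, 984 and 987 in MYC+Ex3 livers, replicates 1 to 5, and 92.1, 83.6, 391, 427 and 105.2 in Ex3 livers. Wild-type livers summed to 57.3 to 91.3 and MYC livers to 418 to 1230. Both Ex3 livers were below the lowest MYC+Ex3 liver and above every wild-type liver. Without them, 41 of 42 members were again called higher, with a median of 3.03; among keratin-bearing libraries alone, 18 of 42 were called. Both are female and no other Ex3 liver is, so sex and these livers cannot be told apart within the Ex3 group; among male livers alone 41 of 42 members were called.

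Other members had the same pattern. Ckap2, a spindle protein, lay at 68.4, 68.8, 48.1, 39.3 and 67 RPKM in MYC+Ex3 and 0.643, 1.33, 18.4, 22.3 and 1.64 in Ex3 livers. Cdc20, the activator of the anaphase-promoting complex, lay at 92.7, 88.5, 42.6, 47.9 and 47 and 2.75, 0.964, 21.1, 19.9 and 2.39. Both were high in Ex3 replicates 3 and 4. Neither overlapped between the groups, as the choice of the largest rises required. Their changes were 3.42 ± 0.70 and 3.24 ± 0.64 (limma adjusted p of 0.00399 and 0.00331). Ccna2, cyclin A2, changed by 3.13 ± 0.61 and Ccnb2, cyclin B2, by 2.99 ± 0.58 (limma adjusted p of 0.00313 and 0.00281). Pttg1, the securin gene, was the 1 member not called, at 13.6 to 19.7 RPKM in MYC+Ex3 and 10.4 to 16.1 in Ex3 livers (change 0.22 ± 0.15, limma adjusted p 0.294).

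Promoters of mitosis genes are known for a pair of short elements, the cell cycle homology region (CHR, TTTGAA) and the CCAAT box. Counted on both strands, the CHR letters were in 27 of 37 windows of the mitosis genes, 73.0%, against 17.9% of all windows and 12.8% of those of the genes tested. CCAAT was in 29 of 37, 78.4%, against 37.4% and 37.9%. In the ribosome biogenesis windows the shares were 7.14% and 23.8%. The windows matched 35 of the 42 mitosis genes, and each motif was searched by itself, so a base shared by both would count for each. The windows of Ckap2 (chr8:22185770-22186069, minus strand) and Cdc20 (chr4:118437294-118437593, minus strand) are shown as the members with the largest change that hold a CHR, with both elements in capitals.

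Ckap2: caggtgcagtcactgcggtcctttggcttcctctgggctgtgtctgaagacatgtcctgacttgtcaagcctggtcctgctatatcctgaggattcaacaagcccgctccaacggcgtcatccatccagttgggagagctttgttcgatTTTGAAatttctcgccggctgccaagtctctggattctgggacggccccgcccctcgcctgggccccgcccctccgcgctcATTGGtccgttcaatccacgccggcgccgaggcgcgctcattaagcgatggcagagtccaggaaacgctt
Cdc20: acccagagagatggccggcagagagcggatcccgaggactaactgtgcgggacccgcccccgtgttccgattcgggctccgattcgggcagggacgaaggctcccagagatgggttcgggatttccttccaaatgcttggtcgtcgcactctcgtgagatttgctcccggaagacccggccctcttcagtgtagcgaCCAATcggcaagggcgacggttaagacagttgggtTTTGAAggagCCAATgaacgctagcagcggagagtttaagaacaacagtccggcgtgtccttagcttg

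The 3 other genes Psrc1, Pbk and Shcbp1, also among the largest rises, are known from cell division. Psrc1, a microtubule-associated protein, lay at 21.8, 21.4, 11.4, 19.2 and 13.7 RPKM in MYC+Ex3 and 0.838, 0.28, 0.508, 1.4 and 0.4 in Ex3 livers. Unlike Ckap2 it was low in all 5 Ex3 livers, and its change was 3.46 ± 0.22 (limma adjusted p 4.42e-06). Pbk, a mitotic kinase, lay at 19.3 to 41.9 and 0.803 to 7.53, and Shcbp1, a SHC-binding protein, at 16.7 to 31.2 and 0.999 to 4.23. Their changes were 3.16 ± 0.48 and 3.14 ± 0.30 (limma adjusted p of 0.000666 and 4.34e-05).

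DNA replication genes rose with 36 of 39 called, 0 lower, and a median of 1.42. Gins2, a subunit of the replicative helicase, lay at 24.9, 30.7, 20.3, 34.2 and 18.8 RPKM in MYC+Ex3 and 3.76, 1.75, 4.56, 6.77 and 1.37 in Ex3 livers. Uhrf1, which copies DNA methylation onto new strands, lay at 16.5, 29.1, 6.57, 37.6 and 11.8 and 1.42, 1.45, 2.78, 2.89 and 2.14. The groups were apart for both, and the spread among MYC+Ex3 livers was wide for Uhrf1, with replicate 3 at 6.57 and replicate 4 at 37.6. The changes were 2.63 ± 0.31 and 2.56 ± 0.39 (limma adjusted p of 0.000155 and 0.000655). The helicase subunits Mcm5 and Mcm6 changed by 2.43 ± 0.33 and 2.13 ± 0.31 (limma adjusted p of 0.000349 and 0.00056). The summed RPKM of the list was 590.2 to 1155 in MYC+Ex3 and 293 to 369.9 in Ex3 livers.

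Regulators of the G1 and S phases moved in a mixed set of roles. Of 14 tested G1 genes 7 rose and 0 fell. Ccne1, cyclin E1, rose from 0.845 to 3.39 RPKM in Ex3 to 4.56 to 21.2 in MYC+Ex3 livers (change 2.01 ± 0.37), and the phosphatase Cdc25a changed by 1.29 ± 0.22. The inhibitors of cyclin-dependent kinases Cdkn1a (2.23 ± 0.37) and Cdkn2c (1.35 ± 0.30) rose too, so that members with opposite roles moved in the same direction (limma adjusted p of 0.00218, 0.00152, 0.0012 and 0.00649 in the order named). Of 12 E2F factors and pocket proteins 7 rose and 1 fell. E2f2 (1.54), E2f1 (1.11), E2f3 (1.08) and their partner Tfdp1 (1.44) rose, and the pocket protein Rbl2, a repressor of E2F targets, fell by 0.40 (limma adjusted p of 0.00215, 0.0026, 0.000424, 9.48e-05 and 0.00984).

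**Figure D3:**
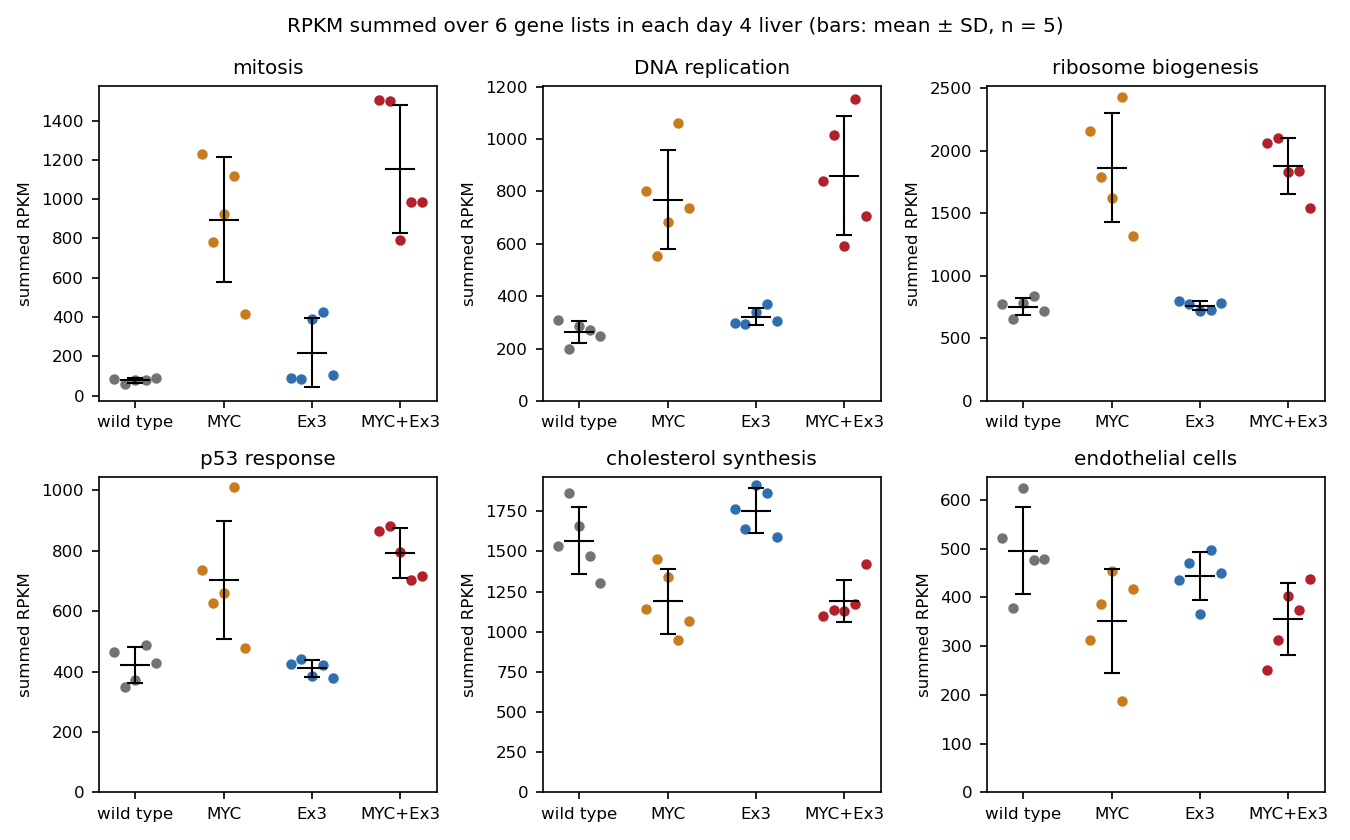
RPKM summed over the genes of 6 lists in each of 20 day 4 livers, with 5 points per group and bars for the mean ± SD. In mitosis, 2 Ex3 livers (391 and 427) lie between the other Ex3 livers and all MYC+Ex3 livers (794 to 1503); cholesterol synthesis is lower in every MYC+Ex3 liver than in every Ex3 liver, and endothelial markers overlap.

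Genes of the p53 response rose in the same livers. Of 22 tested, 15 rose and 0 fell, with a median of 0.92, and the summed RPKM was 702 to 881 in MYC+Ex3 and 378 to 441 in Ex3 livers. Phlda3, a p53 target that restrains AKT, lay at 57, 60.9, 49.8, 48 and 49.4 RPKM in MYC+Ex3 and 2.79, 4.28, 3.53, 8.04 and 3.87 in Ex3 livers. Eda2r, a receptor and p53 target, lay at 37.9, 36.5, 33.2, 23.7 and 14.3 and 2.11, 3.11, 2.33, 2.31 and 1.48. Neither gene overlapped between the groups, as the choice of the largest rises required. The changes were 3.36 ± 0.20 and 3.14 ± 0.25 (limma adjusted p of 3.69e-06 and 1.43e-05). Cdkn1a, which encodes p21, lay at 52.8, 60.4, 37.5, 41 and 28 and 13.2, 17, 5.49, 9.52 and 2.99, and its Ex3 values reached 17.0. Zmat3 (1.67), Mdm2 (1.15), the E3 ligase of p53, and Trp53 itself (1.32) were called as well, with limma adjusted p of 0.000169, 0.000214 and 0.00307. Ei24, the most abundant member not called, had a change of 0.19 ± 0.07 (limma adjusted p 0.075). Without Ex3 replicates 3 and 4, the number of p53 genes called higher was 11.

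The BCL2 family, which decides on mitochondrial apoptosis, changed in both directions. Of 14 tested, 3 rose and 2 fell, close to the shares over all genes. Bax, a pore-forming member, lay at 63.4, 67.7, 60.3, 51.7 and 56.3 RPKM in MYC+Ex3 and 25.5, 24.2, 17.3, 19.6 and 17.1 in Ex3 livers, a change of 1.5 ± 0.13 (limma adjusted p 1.84e-05). Bmf, a BH3-only activator of apoptosis, moved the other way, with 1.51, 1.42, 2.71, 3.99 and 4.43 RPKM in MYC+Ex3 and 7.05, 10.8, 9.24, 10.4 and 17.4 in Ex3 livers. Every MYC+Ex3 liver was above every Ex3 liver for Bax and below every one for Bmf. Bmf fell by 1.68 (SE 0.28, limma adjusted p 0.00114) and stayed between -2.09 and -1.47 over the 24 fits run. The BH3-only gene Bbc3, which encodes PUMA, rose by 0.95 and the pore-former Bok by 0.94, both with overlap between the groups, and both calls were lost in 6 of the 10 fits that leave out 1 liver (limma adjusted p of 0.0306 and 0.036 with all livers). Bcl2l1, which encodes the anti-apoptotic BCL-XL, fell by 0.54 (limma adjusted p 0.0063).

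The remaining large rises were of metabolic and other genes. Hpdl, a relative of the dioxygenase of tyrosine breakdown, lay at 11.2, 13.6, 8.32, 11.5 and 5.57 RPKM in MYC+Ex3 and 0.116, 0.206, 0.141, 0.129 and 0.591 in Ex3 livers (change 3.12 ± 0.21). Phgdh, which catalyses the first step of serine synthesis from glycolysis, lay at 21, 32.6, 6.98, 32.3 and 4.77 and 0.397, 0.972, 0.722, 1.33 and 1.26 (change 3.09 ± 0.47). Hpdl and Phgdh were low in every Ex3 liver, and Phgdh varied widely among MYC+Ex3 livers, with replicates 3 and 5 lowest. Fewer than 3 Ex3 livers reached 1 RPKM for these 2 genes or for Cdca7l and Smpdl3b, described next. All 4 passed the filter through the MYC+Ex3 livers. Cdca7l, a nuclear protein that binds MYC, lay at 6.23 to 17.4 RPKM in MYC+Ex3 and 0.272 to 1.03 in Ex3 livers, and Smpdl3b, a lipid phosphodiesterase, at 4.75 to 22 and 0.107 to 0.86. The changes of these 2 genes were 3.08 ± 0.26 and 3.03 ± 0.39, and the limma adjusted p of the 4 genes, in the order named, were 6.05e-06, 0.000676, 1.97e-05 and 0.000282.

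Of 12 tested members of the MYC network itself, 4 rose and 1 fell, beside 18.9% and 7.69% of all genes. The median change was 0.16. Max, the obligate partner of MYC, lay at 45.9, 44.1, 37.5, 37.2 and 34.2 RPKM in MYC+Ex3 and 22.7, 25.9, 21.4, 25.7 and 25.9 in Ex3 livers, with no overlap. It rose by 0.68, the MYC antagonist Mxd3 by 1.33 and the MAX-binding repressor Mga by 0.52 (limma adjusted p of 0.000609, 0.000229 and 0.00383). The paralog Mycn, low throughout at 0.558 to 1.76 RPKM in MYC+Ex3 and 1.13 to 3 in Ex3 livers, fell by 0.72 (limma adjusted p 0.0222), and this call was lost without Ex3 replicate 1 or without MYC+Ex3 replicate 1.

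The largest falls were spread over receptors, transporters and enzymes. Gpr110, an adhesion G protein-coupled receptor, lay at 5.34, 4.41, 8.14, 3.81 and 12.7 RPKM in MYC+Ex3 and 29.6, 33.8, 25.7, 28.3 and 18.2 in Ex3 livers. All 5 MYC+Ex3 livers were below all 5 Ex3 livers, as the choice of the largest falls required. The gene fell by 1.92 (SE 0.27, limma adjusted p 0.00046). Gbp11, of the interferon-inducible guanylate-binding proteins, lay at 2.64, 1.97, 3.55, 7.25 and 10.3 and 11, 13.3, 14.9, 17.4 and 28.6 (change -1.67 ± 0.37). Slc13a3, a sodium-coupled carrier of dicarboxylates, fell by 1.45, P2ry4, a receptor for extracellular nucleotides, by 1.4, and Rarres1, a retinoid-responsive gene, by 1.32 (limma adjusted p of 0.0059, 0.00399, 0.00212 and 0.000854). Gabbr2, a subunit of the GABA-B receptor, Pdzk1ip1, a small membrane protein, and Sugct, a CoA-transferase of glutarate metabolism, changed by -1.27, -1.26 and -1.24 (limma adjusted p of 0.00403, 0.011 and 0.000158).

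Irs2, the insulin receptor substrate that dominates in fasting liver, lay at 11.7, 11.9, 5.18, 10.3 and 9 RPKM in MYC+Ex3 and 28.8, 22.9, 22.6, 23.8 and 19.1 in Ex3 livers. The groups did not overlap, as the choice of the largest falls required, and the change was -1.24 ± 0.19 (limma adjusted p 0.000853). Members of large gene families were also among the largest falls: the vomeronasal receptor Vmn1r90 (-1.66), the olfactory receptor Olfr1034 (-1.30), the glucuronosyltransferase Ugt2b37 (-1.34) and the fatty acid hydroxylase Cyp4a32 (-1.23), with limma adjusted p of 0.000815, 0.000663, 0.00121 and 0.00759. Such families hold near-identical copies between which reads can be split, so these 4 values are uncertain.

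Cholesterol synthesis was the list with the largest share of falls. Of 21 tested genes, 15 fell and 0 rose, and the median change was -0.69; 20 of the 21 had a negative change. Mvd, the decarboxylase that makes isopentenyl pyrophosphate, lay at 12, 17.2, 8.87, 12.6 and 15.2 RPKM in MYC+Ex3 and 45.7, 38, 35.3, 33.6 and 17.6 in Ex3 livers. Nsdhl, a sterol dehydrogenase late in the pathway, lay at 26.5, 25.9, 30.2, 24.4 and 43.3 and 56.4, 57.1, 66.3, 70.7 and 52.6. In both genes the highest MYC+Ex3 liver was below the lowest Ex3 liver. For Mvd the margin was narrow, and the lack of overlap was a condition of its choice. Mvd fell by 1.28 and Nsdhl by 1.01; Hsd17b7 and Tm7sf2, 2 further enzymes after lanosterol, fell by 1.01 and 0.98 (limma adjusted p of 0.00224, 0.000601, 0.000198 and 0.00209). The summed RPKM of the list was 1096 to 1420.2 in MYC+Ex3 and 1588 to 1912 in Ex3 livers. Leaving out 1 liver at a time gave 12 to 17 lower calls, and leaving out Ex3 replicates 3 and 4 together gave 9. Ebp, an abundant member not called, had a change of -0.25 ± 0.09 (limma adjusted p 0.0522).

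The start-site window of Mvd (chr8:122443373-122443672, minus strand) is shown as that of the cholesterol gene with the largest fall, with the CCAAT box in capitals. NF-Y at CCAAT boxes is a known partner of the sterol-sensing factor SREBP2. The letters TCACNCCAC (N is any base), searched as the sterol regulatory element, were in 0 of 17 windows of this list. They were in 1.24% of all windows. CCAAT was in 14 of the 17 and in 37.4% of all windows. Windows were found for only 14 of the 21 genes, fewer than 80%, so no percentage is given for this list.

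Mvd: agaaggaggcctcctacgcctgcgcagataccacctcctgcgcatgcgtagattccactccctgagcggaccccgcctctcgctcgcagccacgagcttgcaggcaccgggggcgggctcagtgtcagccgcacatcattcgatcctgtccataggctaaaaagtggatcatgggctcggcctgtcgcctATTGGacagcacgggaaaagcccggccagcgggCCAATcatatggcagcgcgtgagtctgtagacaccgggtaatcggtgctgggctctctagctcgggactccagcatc

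**Figure D4:**
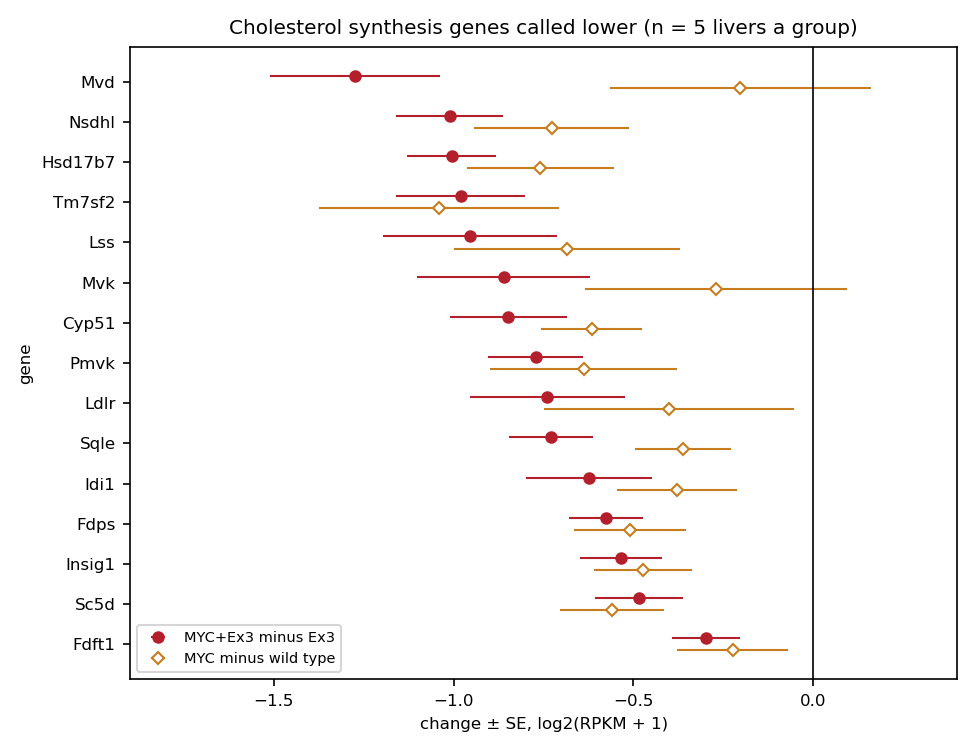
Change of the 15 cholesterol synthesis genes called lower in MYC+Ex3 against Ex3 on the log2(RPKM + 1) scale, with SE bars, in that comparison (red circles) and in MYC against wild type (open diamonds), 5 livers per group. Mvd is at the top of the order with the largest fall, -1.28, and its value in MYC against wild type is -0.20.

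Lists of differentiated liver function fell in part. RPKM of abundant genes falls with library depth in these files. MYC+Ex3 replicates 1 and 2 were the deepest of the 10 libraries, at 6569234 and 7313826 reads in genes. MYC+Ex3 replicate 3 was the shallowest, at 3748941. The part of depth in these falls, and in counts without single livers, was not tested. Of 28 drug-metabolising cytochrome P450 genes, 9 fell and 1 rose, with a median of -0.40. Cyp2d22 fell by 0.84 with no overlap (48.1, 41.4, 47.5, 45.9 and 57.2 RPKM in MYC+Ex3 and 101, 94.8, 78.2, 72.7 and 86.1 in Ex3 livers, limma adjusted p 0.000323). Cyp2c40 (-1.91) and Cyp2c54 (-1.12) were called lower and Cyp2c55 higher (0.87), with limma adjusted p of 0.0304, 0.0394 and 0.0245. The Cyp2c genes are near-identical copies, Cyp2c40 differs between the sexes at baseline, and all 3 calls were lost in some fits that leave out 1 liver. Cyp1a2, an abundant member not called, had a change of -0.35 ± 0.15 (limma adjusted p 0.109). The number of P450 genes called lower was 3 without Ex3 replicate 3 or 5 or MYC+Ex3 replicate 2, 4 without MYC+Ex3 replicate 1, and 5 without Ex3 replicate 1 or 4.

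Of 19 hepatocyte transcription factors, 5 fell and 0 rose. Ppara, the fatty acid sensor of fasting, lay at 71.7, 60.1, 83.9, 71.4 and 69.6 RPKM in MYC+Ex3 and 103, 90.6, 127, 107 and 119.9 in Ex3 livers, with no overlap, and fell by 0.61 (limma adjusted p 0.00207). The others were Onecut2 (-0.59), the drug-sensing receptor Nr1i3 (-0.50), the shared receptor partner Rxra (-0.49) and Prox1 (-0.48), with limma adjusted p of 0.0131, 0.0196, 0.00245 and 0.00509. The most abundant members not called were Cebpa and Hnf4a, with changes of -0.22 ± 0.12 and -0.18 ± 0.09 (limma adjusted p of 0.203 and 0.182). The list had 8 lower calls without MYC+Ex3 replicate 3 and 3 without both Ex3 replicates 3 and 4. Of 24 bile acid genes, 6 fell and 0 rose (10 fell without MYC+Ex3 replicate 3). Their summed RPKM was 2070, 1914, 2836, 2152 and 2573 in MYC+Ex3 and 2815, 2703, 3029, 2911 and 3058 in Ex3 livers. The sterol exporters Abcg8 and Abcg5, which work as a dimer, fell by 1.03 and 0.83, the basolateral exporter Abcc3 by 0.60 and the acidic-pathway enzyme Cyp27a1 by 0.48 (limma adjusted p of 0.000954, 0.0168, 0.0163 and 0.00736).

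Of 17 periportal genes, 3 fell and 0 rose (6 fell without MYC+Ex3 replicate 4 or 5). Pck1, the gateway enzyme of gluconeogenesis, lay at 109, 86.9, 112, 171 and 147 RPKM in MYC+Ex3 and 228, 186, 215, 226 and 276 in Ex3 livers, with no overlap (change -0.87 ± 0.17). Pigr, which carries IgA into bile, and the P450 gene Cyp2f2 changed by -0.52 and -0.33 (limma adjusted p of 0.00325, 0.00962 and 0.0211), the last of which was not called without Ex3 replicate 1 or 5 or MYC+Ex3 replicate 2. Of 26 fatty acid oxidation genes, 3 fell and 1 rose, beside the 7.69% and 18.9% of all genes, and 9 fell without MYC+Ex3 replicate 3. The peroxisomal thiolase Acaa1a (-0.37) and Ppara were among those that fell, and the mitochondrial thioesterase Acot2 rose by 1.05 (limma adjusted p of 0.00767, 0.00207 and 0.0177). Of 15 lipogenesis genes 2 fell, the acetyl-CoA carboxylase Acacb (-0.98) and the elongase Elovl5 (-0.65), with limma adjusted p of 0.0488 and 0.00254. The call of Acacb was lost in 7 of the 10 fits that leave out 1 liver. The number of lipogenesis genes called lower, to be read beside the same 7.69%, was 4 without Ex3 replicate 5 and 1 in each fit that left out 1 of the other Ex3 livers. Of 25 acute phase proteins, 1 fell and 0 rose, below the share over all genes, and 3 fell without MYC+Ex3 replicate 3 or 5.

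YAP and TAZ are the growth-promoting co-activators held back by the Hippo kinases, and they appear in the title of the series. Of 17 tested YAP/TAZ targets, 5 fell and 0 rose, with a median of -0.13; without Ex3 replicates 3 and 4, 3 fell and 1 rose. Nuak2, a kinase, lay at 9.33, 10.1, 9.88, 11 and 9.81 RPKM in MYC+Ex3 and 19.9, 17.9, 18.9, 19 and 15.8 in Ex3 livers. The groups were far apart, and the change was -0.81 ± 0.09 (limma adjusted p 0.000133). The growth factor-binding protein Igfbp3 (-0.92), the angiomotin Amotl2 (-0.67), the RNA-binding protein Rbms3 (-0.60) and the Hippo kinase Lats2 (-0.43) fell as well, with limma adjusted p of 0.0168, 0.0196, 0.0169 and 0.0161. Of 8 oncofetal genes 1 fell, the imprinted gene Peg3 (-0.71, limma adjusted p 0.0195).

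Of 27 interferon-stimulated genes 1 rose, the chemokine Cxcl10 (0.96, limma adjusted p 0.0189), and 0 fell, both below the shares of 18.9% and 7.69% over all genes. The count of falls depended on 1 liver. The summed RPKM of the list was 1138 in MYC+Ex3 replicate 4, 427 to 649 in the other MYC+Ex3 livers and 592 to 658 in Ex3 livers. Without that replicate 10 members were called lower, and without Ex3 replicates 3 and 4 together 0 were called in either direction.

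The list counts differed between the library sets. In the keratin-bearing and keratin-free libraries, 38 and 39 ribosome biogenesis genes, 22 and 35 DNA replication genes and 12 and 17 p53 genes were called higher. For mitosis the numbers were 18 of 42 and 25 of 25 tested. The filter still asked for at least 1 RPKM in 3 libraries, so genes below 1 in both keratin-free Ex3 livers were not tested there. The numbers tested thus differ between the sets. Cholesterol synthesis had 8 and 17 members called lower and 1 called higher in each set. The lists of liver function had more lower calls in the keratin-free set: 2 and 16 P450 genes, 4 and 18 bile acid genes, and 1 and 14 periportal genes. Over all genes, 310 of 12846 were called lower in the keratin-bearing set and 2576 of 12428 in the keratin-free set. Higher calls numbered 1372 and 3310. Calls were thus more frequent in the keratin-free set over all genes as well. Groups hold 3 livers each in the first set and 2 each in the second. Depth differed as well. In the keratin-free set the MYC+Ex3 livers held 6569234 and 7313826 reads in genes and the Ex3 livers 5381030 and 6047262. In the keratin-bearing set the MYC+Ex3 livers held 3748941, 5095272 and 4814331 and the Ex3 livers 4438589, 4833348 and 4224557. The cause of the difference in calls, depth included, was not tested.

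Markers of other liver cells were mostly not called, yet leaned downward. Of 15 endothelial markers, 2 fell (Eng by 0.51 and Stab2 by 0.45) and 0 rose, beside 7.69% and 18.9% of all genes. The list had a median of -0.36 and summed RPKM of 250 to 437 in MYC+Ex3 and 366 to 497 in Ex3 livers. Of 15 stellate cell and fibroblast markers, 2 fell (Hand2 by 0.81 and Reln by 0.75) and 0 rose, with a median of -0.35 and sums of 138 to 297 and 241 to 299.7. The limma adjusted p were 0.00467, 0.00349, 0.023 and 0.00238, and Hand2 was not called without Ex3 replicate 5 or MYC+Ex3 replicate 1. The endothelial markers called lower were 4 without replicate 3 of either group or MYC+Ex3 replicate 5, and the stellate markers 4 without MYC+Ex3 replicate 4 or 5 and 1 without Ex3 replicate 5 or MYC+Ex3 replicate 1. Among the 4 keratin-free libraries 13 endothelial and 11 stellate markers were called lower, and among the 6 keratin-bearing ones 0 and 1. Over all genes, 2576 of 12428 and 310 of 12846 were called lower in these 2 sets. The part of endothelial and stellate cells in other falls was not tested. The Kupffer cell gene Clec4f and the endothelial gene Pecam1 were detected in every liver, at 58.1 to 101 and 10.1 to 20.8 RPKM.

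Of 15 macrophage markers, Marco rose by 1.14 and Cd163 fell by 0.93 (limma adjusted p of 0.0395 and 0.01), and summed RPKM overlapped at 571 to 1080.2 and 676 to 843. The calls of Marco and Prf1 were each lost in 6 of the 10 fits that leave out 1 liver. Marco, a scavenger receptor, reached 53.9 RPKM in MYC+Ex3 replicate 4 against 9.27 to 20.1 in the other MYC+Ex3 livers. Of 10 T and NK cell markers 1 fell, the perforin gene Prf1 (-0.84, limma adjusted p 0.0261), with sums of 8.38 to 22.8 and 14.2 to 22.2 RPKM. Of 7 neutrophil and 4 B cell markers 0 were called. Of 8 cholangiocyte markers 1 fell (2 without Ex3 replicate 4). Epcam lay at 0.369, 0.729, 0.517, 0.571 and 0.604 RPKM in MYC+Ex3 and 1.8, 7.06, 2.29, 1.41 and 1.61 in Ex3 livers (change -1.14 ± 0.29, limma adjusted p 0.013). Every MYC+Ex3 value of Epcam was below 1 RPKM, so the gene passed the filter through the Ex3 livers. Ex3 replicate 2 was highest, and the same liver held 57.5 RPKM of Krt19 against 0.689 to 2.57 in the other Ex3 livers. Of 11 hepatocyte markers 1 fell and 0 rose, at the compressed top of the scale. Tat, the tyrosine aminotransferase, lay at 102, 95, 138, 185 and 174 RPKM in MYC+Ex3 and 200.4, 185, 196, 205 and 259 in Ex3 livers (change -0.63 ± 0.19, limma adjusted p 0.0273), and this call was lost without Ex3 replicate 4 or 5 or MYC+Ex3 replicate 1 or 2.

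The same MYC allele was also added to livers without Ex3, in 10 libraries that share no sample with this comparison. On the same 13272 genes, 1702 were called higher with MYC alone (12.8%) and 364 lower (2.74%). Of the 2506 genes higher on the Ex3 background, 1484 (59.2%) were also higher without it, which is 87.2% of the genes higher there. Of the 1020 lower genes, 222 (21.8%) were also lower without Ex3, 61.0% of the list there. No gene was called in opposite directions. The MYC library of replicate 5 held 86.1 RPKM of Xist and 4.74 of Ddx3y, whereas each of the other livers held 1 of these genes at no more than 1.04 RPKM. Without it a fit of its own 13147 genes called 1866 higher and 443 lower in MYC against wild type, and the test of the difference described next again called 0. Without MYC replicate 1, a fit of its own 13208 genes called 1138 higher and 108 lower in MYC against wild type. Changes without Ex3 were positive for 99.6% of the 2506 higher genes and negative for 98.2% of the 1020 lower ones, against 57.3% and 42.7% of all genes. Across the 13272 genes the changes had a Pearson r of 0.90 and a Spearman rho of 0.86, as a description, since genes are not independent replicates.

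**Figure D5:**
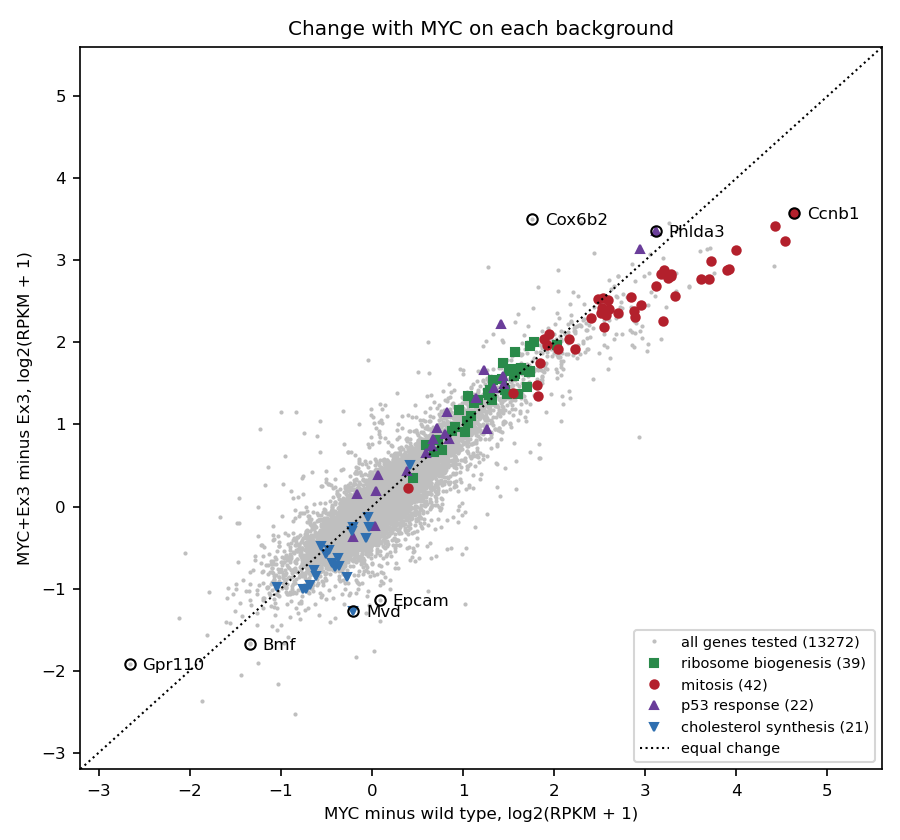
Change of each of 13272 genes on the log2(RPKM + 1) scale with MYC added to wild-type livers (horizontal) and to Ex3 livers (vertical), with 4 gene lists in colour and the dotted line of equal change. Cox6b2 lies above the line at 1.76 and 3.51, Mvd and Epcam below it, and most mitosis genes to its right.

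The difference between the 2 backgrounds was tested as an interaction over all 20 livers. No gene passed (0 called at a limma adjusted p below 0.05, smallest 0.9999; 124 genes at an unadjusted p below 0.05, and 0 called by limma-voom on recovered reads). Cox6b2 had the smallest unadjusted p of all genes, 0.000154, with a difference of 1.74 (95% interval 0.96 to 2.53) on the log2 scale: 3.51 with Ex3 against 1.76 without. Its adjusted p was 0.9999, and it fell to 0.117 without Ex3 replicate 4. With a pseudocount of 0.1 the unadjusted p was 0.0262, at rank 46 of all genes. For Epcam the difference was -1.22 (95% interval -1.96 to -0.48), with an unadjusted p of 0.00248, and for Mvd it was -1.07 (95% interval -2.04 to -0.11), with an unadjusted p of 0.0312. None of these is shown to differ between the backgrounds after adjustment.

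Intervals for the other named genes differed in width, and several were wide. The difference was -1.06 (95% interval -2.97 to 0.84) for Ccnb1, 0.24 (95% interval -0.51 to 0.98) for Phlda3, -0.34 (95% interval -1.43 to 0.76) for Bmf and 0.74 (95% interval -0.33 to 1.81) for Gpr110, all including 0. Nop56 was narrower at -0.06 (95% interval -0.54 to 0.42). Cct7 at -0.01 (95% interval -0.26 to 0.24) and Ctnnb1 at 0.03 (95% interval -0.24 to 0.29) were narrower still. For ribosome biogenesis the median change was 1.38 with Ex3 and 1.33 without, and 39 and 38 of 39 members were called higher. For mitosis it was 2.44 and 2.77, with 41 of 42 called on both backgrounds. The cholesterol list had 15 members called lower with Ex3 and 6 without (medians -0.69 and -0.40); 18 of its 21 members had a more negative change with Ex3, against 54.8% of all genes, and 0 passed the test of the difference.

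The 3 marker genes took the following levels in the 4 groups. Mean RPKM (± SD, n = 5) in wild-type, MYC, Ex3 and MYC+Ex3 livers was 0.45 ± 0.317, 3.9 ± 0.944, 0.526 ± 0.704 and 15.8 ± 5.26 for Cox6b2. For Ccnb1 it was 1.16 ± 0.826, 56.1 ± 25.3, 10.9 ± 13.3 and 72.4 ± 16.8. For Bmf it was 8.81 ± 6.06, 2.53 ± 1.35, 11 ± 3.86 and 2.81 ± 1.38.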

How the data were processed

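Total RNA of whole livers was sequenced after a stranded TruSeq library preparation, per the labels' protocols. Per the submitters' processing notes, TopHat2 2.0.8, featureCounts 1.4.5-p1, SAMtools and DESeq2 were used, with mm9. The authors deposited 1 table of RPKM values per gene and library, with log2 fold changes and adjusted p-values of their own comparisons (the authors' log2 values and p-values are printed for Cox6b2 only). Whether counting used strand is not given in the sources used here, so overlapping genes are uncertain.

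Libraries were grouped by the labels' genotypes, and 0 columns were left unmapped. Genes with RPKM of at least 1 in at least 3 of 10 libraries were tested with limma 3.58.1 (R 4.3.3; empirical Bayes with trend, two-sided, Benjamini-Hochberg) on log2(RPKM + 1), which understates changes of low genes. Genes low in 1 group could pass this filter through the other group alone. Cox6b2, Hpdl, Phgdh, Psrc1, Cdca7l, Smpdl3b, Slc7a1 and Rpl26 passed in this way through the MYC+Ex3 livers. Epcam, Mycn and Prf1 did so through the Ex3 livers. Nothing says whether libraries of a group shared a litter, so p-values measure the spread between these livers. Whole reads were recovered from the RPKM for 18212 of 18212 genes above 0 in at least 5 libraries (100.0%, tolerance 0.01 reads); limma-voom on them called 2551 higher and 1153 lower. The test was tried on simulated data of 13272 genes, in which it called 65 of 100 genes changed by 1 log2 unit, 100 of 100 changed by 2, and 11 of 13072 unchanged ones. The simulation gave every gene the same spread between livers (negative binomial dispersion of 0.05). It held no library sets, sexes, outlying livers or compression, and changed genes were drawn from well-covered ones. Its rates therefore do not carry over to these livers, which were more uneven. Named genes are the 15 called genes that rose most and the 15 that fell most (mean above 5 RPKM, groups apart, no predicted genes, small RNAs or pseudogenes), up to 4 called members and some abundant uncalled ones per list, and Cox6b2, Ccnb1, Bmf, Myc and Ctnnb1. Aars, Axin2, Bcl2l1, Cox6b1, Grwd1, Lats2, Lgr5, Mdm2, Nop2, Paox, Prox1, Rbl2 and Trp53 fall outside this rule and were chosen after their values were seen. The members and lists were chosen with earlier results of these data known. Start-site windows came from RefSeq tables of GRCm38.p6, matched by symbol or unambiguous synonym. Alternatives are named in the closing section. Some results are not reported here.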

Additional observations from a re-analysis of the deposited data

Results flagged for a closer look

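In 21 of 288 pairs of a named gene and a group, 1 liver lay far from the other 4 of its group; chance alone puts about 1 in 20 groups in this state. They fell on 8 of the 10 livers, with 1 to 4 pairs each. In the Ex3 group, replicate 2 was high in Pdzk1ip1 (16.8 RPKM against 4.61 to 6.42 in the others) and in Epcam (7.06 against 1.4 to 2.29), and low in Cebpa (142 against 165 to 173). Replicate 3 was low in Nop2 (14.8 against 20.4 to 22.2) and high in Nr1i3 (66.3 against 56.9 to 58.3). Replicate 4 was high in Phlda3 (8.04 against 2.79 to 4.28), Cdca7l (1.03 against 0.272 to 0.427) and Mxd3 (2.71 against 1.02 to 1.46). Replicate 5 was high in Hpdl (0.591 against 0.116 to 0.206) and Tat (259 against 185 to 205) and low in Slc1a5 (3.35 against 6.53 to 7.8) and Peg3 (2.58 against 4.39 to 4.89).

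In the MYC+Ex3 group, replicate 2 was high in Rps16 (67.8 RPKM against 48.2 to 53.9). Replicate 3 was high in Mycn (1.76 against 0.558 to 0.762), Cct4 (88.8 against 78.1 to 80.9) and Rps12 (87.4 against 66.0 to 71.4). Replicate 4 was low in Aars (52.6 against 63.0 to 66.1) and high in Marco (53.9 against 9.27 to 20.1). Replicate 5 was high in Gabbr2 (4.15 against 1.78 to 2.28) and low in Dkc1 (50.1 against 54.4 to 55.5) and Cct7 (35.0 against 37.5 to 38.5).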

How the results depend on the processing

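The count of called genes (3526) kept within 1.5 times of itself in most settings, and leaving out 1 liver at a time gave 2802 to 3728. It was 6321 with sample quality weights, 1682 among keratin-bearing and 5886 among keratin-free libraries, with a library set term 5066 (3331 higher and 1735 lower), and 857 where a change of at least 1 log2 unit was required too. Lower calls, 1020 with all livers, were 647 in the joint fit, 642 among males and 614 without both Ex3 livers high in mitosis genes. In MYC against wild type, weights gave 3301 and leaving out 1 liver gave 1246 (without MYC replicate 1) to 2309. Of 131 named genes called, 0 turned direction; 115 were called in every fit that left out 1 liver and 74 in all of the other settings whose filter they passed (11 to 13 settings per gene). These were the pseudocount of 0.1, no filter, a minimum of 5 RPKM, median-ratio rescaling, terms for sex and for the library set, sample quality weights, the joint fit of 20 livers, each keratin set, males alone, the fit without both Ex3 livers high in mitosis genes, and limma-voom, the last 2 chosen after seeing the data. Keratin-bearing libraries alone lost 43 of the 131 calls, the joint fit of 20 livers 25, and the fit without both Ex3 livers high in mitosis genes 22.

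Genes not called changed sign. Myc was at -0.06 among keratin-bearing libraries. Axin2 was at 0.21 with weights, 0.07 among keratin-free libraries, and -0.38 (without Ex3 replicate 5) to 0.02 (without MYC+Ex3 replicate 4). Ctnnb1 was at -0.07 after rescaling, -0.13 with weights, -0.10 among keratin-free libraries, and between -0.05 and 0.05 in fits that leave out 1 liver. The causes were not tested. No paired analysis was possible because the labels give no replicate numbers shared between groups. A term for the library set was fitted instead, with the counts given above. At the observed depth, genes near 1 RPKM rest on few reads per library.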
